A study of Mus musculus with 24 samples.

Results

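The 41 genes described here drive or mark the mammalian cell division cycle, from the G1 cyclins to the proteins that separate chromosomes. They were selected by gene symbol from an expression study of interferon-treated mouse fibroblasts. A probe set naming a single gene was found for 40 of the 41 genes (102 of 45037 probe sets, which name 18193 genes), Ccnb1 being the one without. Of these, 39 genes (81 probe sets) exceeded log2 4, taken as background, on at least 3 of the 24 arrays, as did 9421 genes (19305 probe sets) in all. The one below it was Cdk2, whose 2 probe sets stayed under log2 4 on all 24 arrays (means 3.10 and 2.77). All 39 genes lay above log2 4 on every one of the 24 arrays, which 7924 of the 9421 genes did.

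NIH-3T3, an established line of mouse embryonic fibroblasts, received IFN-alpha or IFN-gamma at 100 U/ml or no interferon (mock), and total cellular RNA was hybridised to one-colour Affymetrix arrays. At 1 h there were 4 arrays each of mock, of IFN-alpha and of IFN-gamma, all with 200 uM 4-thiouridine (4sU), which cells incorporate into new transcripts, from 0 to 60 min. Mock cells at 1 h without 4sU formed another group (3 arrays). The 3 h set holds 3 arrays per treatment, all with 500 uM 4sU from 150 to 180 min. No group lacked 4sU at 3 h, and the mock groups of 1 h and 3 h differ in time, 4sU dose and labelling window together. The cells are 1 line, and no label ties a replicate to a culture of its own, so each p-value reflects the spread from array to array, part of which may be technical. All 8 fibroblast marker genes (median of their means 12.8) were well above background, among them Col1a1, Col1a2 and Vim. Epithelial and endothelial markers lay below log2 4 (highest mean 3.46 and 2.57), with a single epithelial gene above it on any array, and of 6 leukocyte markers Cd14 alone (5.35) passed the filter.

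Cells pass through G1, replicate DNA in S phase, and divide in mitosis after G2. D-type and E-type cyclins with their kinases release E2F factors from RB in G1, and E2F then switches on genes for origin licensing and DNA synthesis. Genes for mitosis are switched on later, through a promoter element called CHR (cell cycle genes homology region) and CCAAT boxes, by complexes that include B-MYB and FOXM1. Both interferons are known to slow the growth of many cell types, and an asynchronous fibroblast culture holds cells of all phases. In total RNA of such a culture, fewer cells in a phase and less RNA per cell cannot be told apart.

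In the promoters of the members, CHR and E2F elements split largely by phase, while CCAAT boxes were found on both sides. RefSeq windows (build GRCm38.p6, 250 bases before to 50 after a start) were matched by symbol for 32 of the 41 members, and the 31 with a single window were searched on both strands. The CHR letters (TTTGAA or TTCGAA) were in 12 of 16 G2/M and mitosis members and in 1 of 15 G1 and replication members, Mcm2, beside 19.8% of 22862 genes with a single window. E2F letters (TTTGGCGC, TTTGCCGC, TTTCGCGC or TTTCCCGC) were in 6 of the 15 G1 and replication members (Cdc6, Cdk2, Cdt1, Mcm3, Mcm5 and Mcm6) and in 1 of the 16 others, Cdk1, beside 2.32% of genes. CCAAT was in 15 of the 16 and in 8 of the 15, beside 38.2%. Mcm7, a licensing gene left out for having more than 1 window, held CHR letters (at -173) as well as E2F and CCAAT letters. No window was found here for Aurkb, Ccna2, Ccnd1, Ccnd2, Ccne2, Gmnn, Kif20a, Mcm4 and Tpx2. A match is a description of letters and no evidence of binding.

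The 160 bases before the start are shown for 7 members, 3 mitotic genes with CHR and CCAAT letters (Cdc20, Cdk1 and Kif11), 2 genes of the G1 and replication roles with E2F letters (Mcm6 and Cdk2), and Cenpe and Ccne1, on which results below turn. Capitals mark the letters of the 3 elements on either strand, and each sequence runs 5′ to 3′ on the strand of its gene up to the last base before the start.
Cdc20: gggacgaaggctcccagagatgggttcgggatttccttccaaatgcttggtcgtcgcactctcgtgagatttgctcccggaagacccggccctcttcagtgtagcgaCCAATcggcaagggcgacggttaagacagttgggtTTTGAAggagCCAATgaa
Cdk1: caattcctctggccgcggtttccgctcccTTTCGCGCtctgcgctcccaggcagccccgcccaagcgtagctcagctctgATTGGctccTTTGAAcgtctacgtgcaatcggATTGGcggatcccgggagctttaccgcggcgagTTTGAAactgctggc
Kif11: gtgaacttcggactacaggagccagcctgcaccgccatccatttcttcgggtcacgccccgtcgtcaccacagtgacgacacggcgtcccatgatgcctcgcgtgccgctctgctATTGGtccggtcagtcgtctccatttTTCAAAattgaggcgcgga
Mcm6: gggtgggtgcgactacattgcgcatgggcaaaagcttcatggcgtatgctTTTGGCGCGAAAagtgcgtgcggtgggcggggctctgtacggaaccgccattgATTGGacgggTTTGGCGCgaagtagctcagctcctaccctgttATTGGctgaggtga
Cdk2: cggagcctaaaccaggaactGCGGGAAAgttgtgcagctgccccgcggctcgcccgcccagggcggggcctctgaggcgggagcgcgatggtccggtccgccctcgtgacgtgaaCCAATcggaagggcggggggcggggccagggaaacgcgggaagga
Cenpe: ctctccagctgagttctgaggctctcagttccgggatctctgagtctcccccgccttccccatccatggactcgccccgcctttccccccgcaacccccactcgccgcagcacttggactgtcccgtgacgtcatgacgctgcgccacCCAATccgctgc
Ccne1: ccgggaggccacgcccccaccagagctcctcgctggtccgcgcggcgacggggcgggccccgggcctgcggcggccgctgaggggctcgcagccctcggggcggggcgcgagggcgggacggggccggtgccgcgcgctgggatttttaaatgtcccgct

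In this build the stretches lie at chr4:118437344-118437503 (minus strand) for Cdc20, chr10:69352913-69353072 (minus) for Cdk1, chr19:37376222-37376381 (plus) for Kif11, chr1:128359706-128359865 (minus) for Mcm6, chr10:128705052-128705211 (minus) for Cdk2, chr3:135212403-135212562 (plus) for Cenpe and chr7:38107491-38107650 (minus) for Ccne1. In Cdc20 the CHR letters begin at position -18 from the start, between CCAAT boxes at -53 and -8. Cdk1 has CHR letters at -71 and -15 as well as an E2F match at -131. Mcm6 has overlapping E2F matches at -110 and -106 and another at -47, and no CHR letters. Cenpe has 1 CCAAT box at -12, and the window of Ccne1 holds none of the 3 elements. Of Aurka, which also matters below, the window holds CCAAT boxes at -51 and -19 and CHR letters at 33 after the start.

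**Figure D1:**
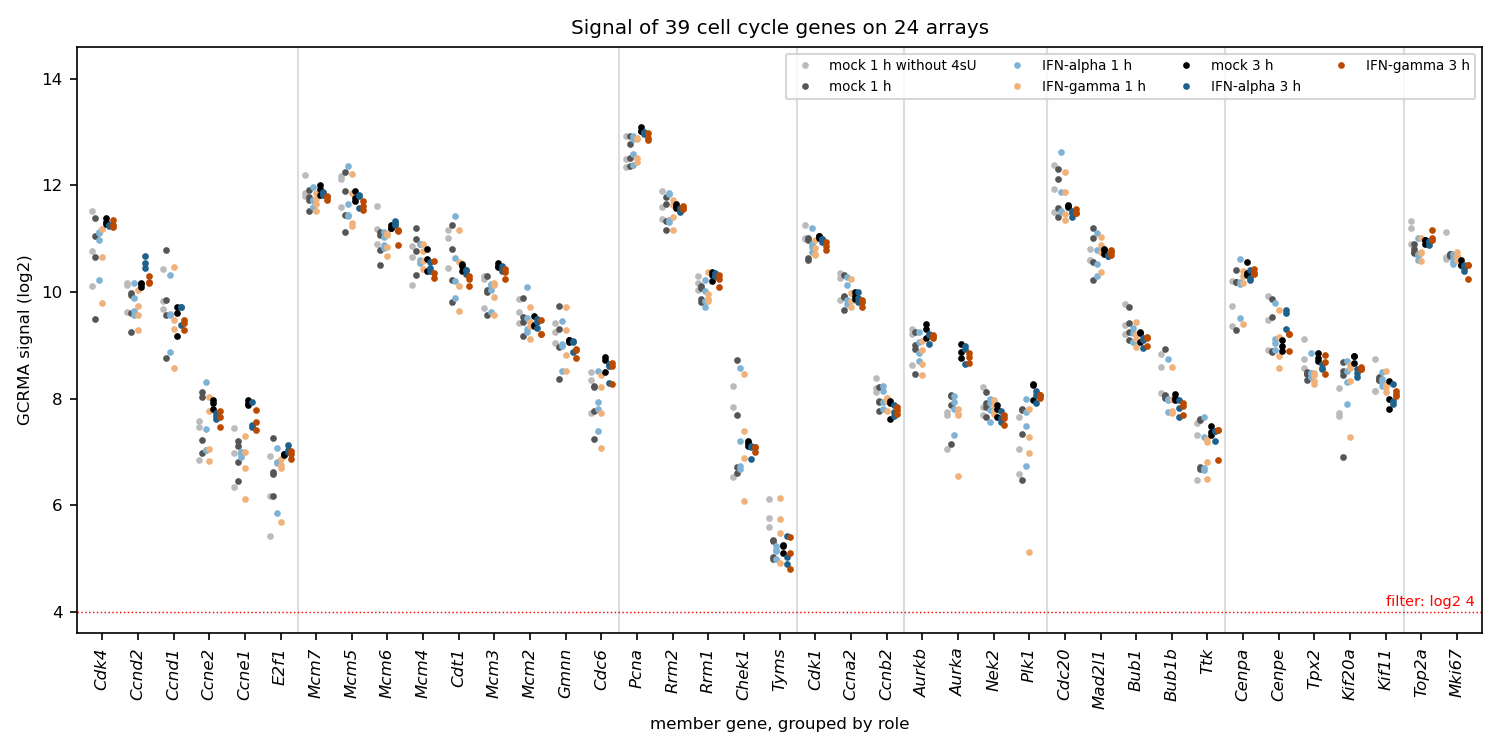
GCRMA signal (log2, vertical axis) of the 39 measured cell cycle genes on each of the 24 arrays, with genes grouped by role (vertical lines) and points coloured by group. All points lie above the dotted line at log2 4, and the 1 h arrays scatter more widely than the 3 h arrays for 37 of the 39 genes.

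Signals of different probe sets are not compared as amounts of RNA, and the means over the 24 arrays are given only to show where each gene was read. Of the G1 genes, the D-type cyclins Ccnd1 and Ccnd2 read 9.61 and 9.97, the E-type cyclins Ccne1 and Ccne2 7.20 and 7.56, the kinase Cdk4 10.95 and the transcription factor E2f1 6.69. The licensing factors Cdc6 and Cdt1, which load the replicative helicase on origins, read 8.18 and 10.48. Gmnn, the inhibitor of Cdt1, read 9.05, and the helicase subunits Mcm2 to Mcm7 between 9.47 (Mcm2) and 11.80 (Mcm7), with Mcm3 at 10.15, Mcm4 at 10.63, Mcm5 at 11.73 and Mcm6 at 11.06. Of the genes of DNA synthesis, the sliding clamp Pcna read 12.78, the ribonucleotide reductase subunits Rrm1 and Rrm2 10.11 and 11.55, thymidylate synthase Tyms 5.30 and the checkpoint kinase Chek1 7.25.

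For the later phases, Cdk1, the kinase that starts mitosis, read 10.92 and its cyclins Ccna2 and Ccnb2 9.96 and 7.94. The mitotic kinases Aurka, Aurkb, Plk1 and Nek2 read 8.08, 9.02, 7.52 and 7.79. The spindle checkpoint genes Bub1, Bub1b, Mad2l1 and Ttk read 9.22, 8.09, 10.73 and 7.16, and Cdc20, which activates the ligase that starts anaphase, 11.73. The centromere genes Cenpa and Cenpe read 10.14 and 9.22, the kinesins Kif11 and Kif20a 8.23 and 8.33, and the spindle factor Tpx2 8.59. The proliferation marker Mki67 read 10.61 and topoisomerase Top2a 10.90.

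The arrays did not read these genes with equal precision. The median standard deviation (SD) of a member within a group was 0.29 to 0.34 at 1 h and 0.082 to 0.095 at 3 h. For beta-actin the gap between the 3′ and the 5′ probe set was above 2 (log2) on 5 arrays of 1 h, replicate 2 of mock, of IFN-alpha and of IFN-gamma (2.99, 3.09 and 3.43) and replicates 2 and 3 of mock without 4sU (2.22 and 3.31). On the other 19 arrays that gap was 0.78 to 1.37. At 3 h the middle probe set of 18S ribosomal RNA read 9.89 on replicate 3 of IFN-alpha and 6.13 on replicate 3 of IFN-gamma, against at most 5.82 on any mock array. Each difference given is first minus second group mean on the log2 scale, with its standard error (SE) from limma, in which all 7 groups share 1 spread per probe set, so intervals at 3 h carry the wider spread of 1 h. Calls given as limma are from this fit. Those given with the block are also from limma, with the replicate number added to the fit.

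**Figure D2:**
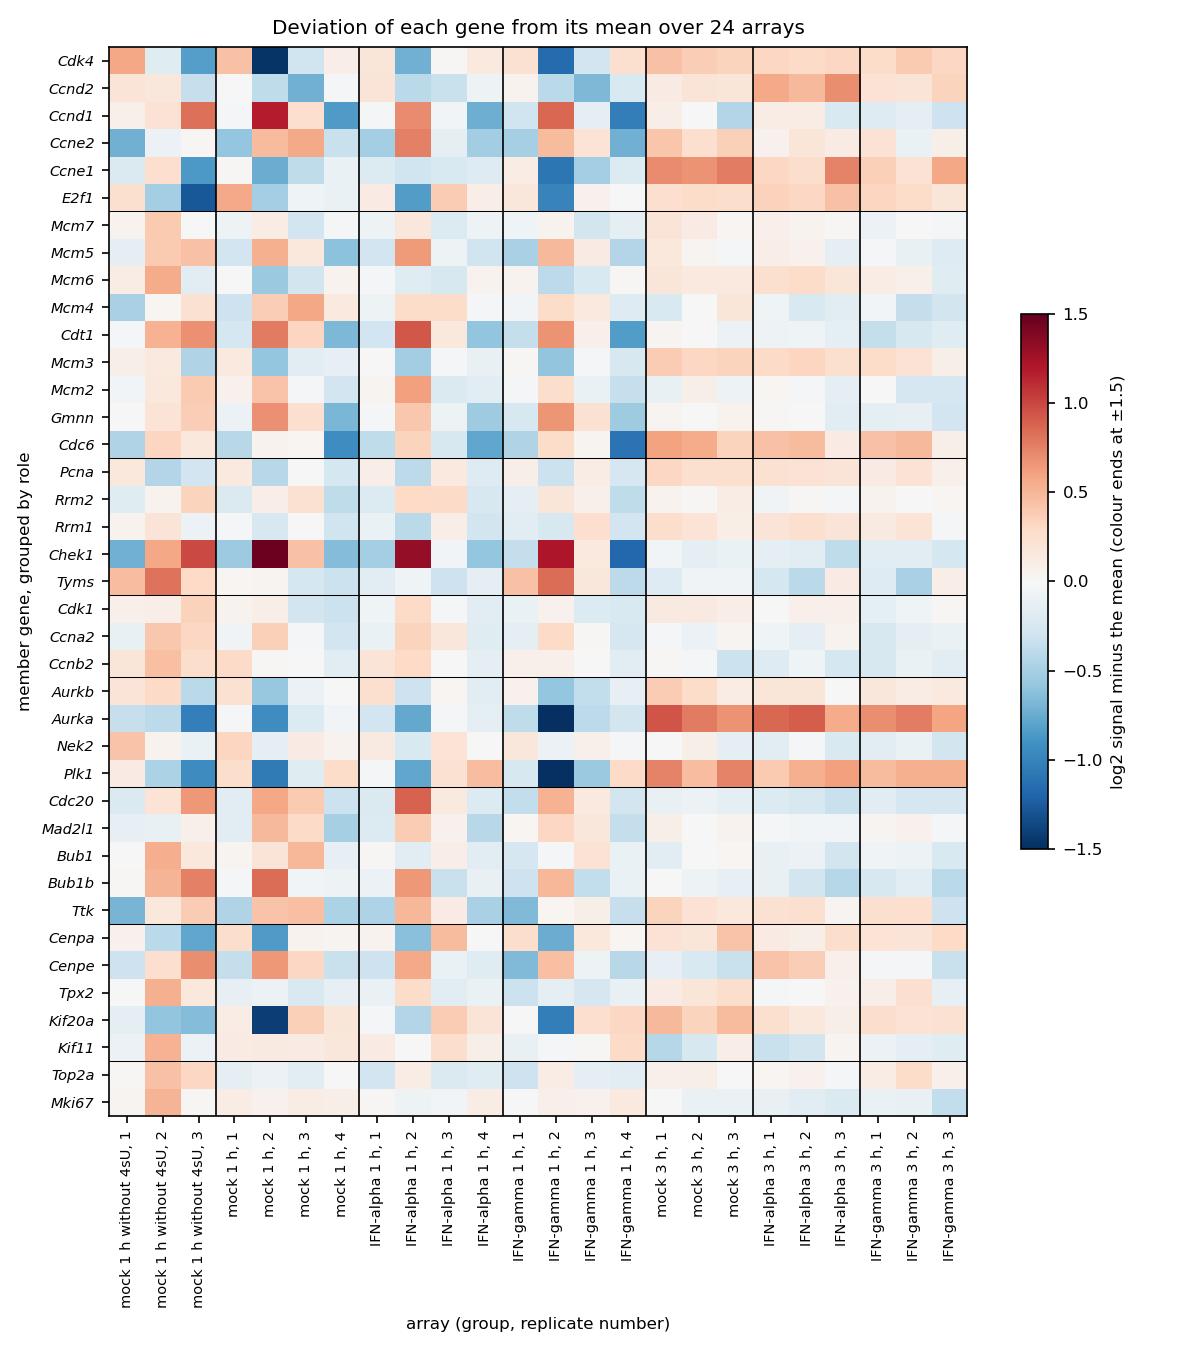
Log2 signal of each cell cycle gene (rows, grouped by role) minus its mean over the 24 arrays, by array (columns, group and replicate number), with colours ending at 1.5 in either direction. The columns of replicate 2 at 1 h stand apart in all 3 treatments with 4sU, and Ccne1 and Aurka are above their means on all 9 arrays of 3 h.

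The first comparison asked whether the cell cycle genes responded within 1 h of interferon, and none was called with either. With IFN-alpha, 0 of 39 members passed (limma, Benjamini-Hochberg adjusted p under 0.05 over all 19305 probe sets), beside 0.308% of all genes, and 0 had an unadjusted p under 0.05, beside 1.17%. The differences ran from -0.20 to 0.22 with a median of 0.016, against -0.0023 over all genes, and the median half-width of a member's 95% interval was 0.40. With IFN-gamma, 0 of 39 passed in limma (0.456% of genes) and 0 had an unadjusted p under 0.05 (2.63% of genes), with a median of -0.042 (all genes -0.041). The groups overlapped for all 39 genes with either interferon, while they did not for 0.647% of all genes with IFN-alpha and 1.26% with IFN-gamma.

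Among the mitotic kinases, Plk1, which acts from mitotic entry to cytokinesis, showed the widest gap with IFN-gamma at 1 h. Its signal was 7.78, 6.46, 7.34 and 7.80 on the mock arrays, 7.49, 6.74, 7.75 and 7.99 with IFN-alpha, and 7.28, 5.12, 6.97 and 7.81 with IFN-gamma. The lowest value of each group was replicate 2, one of the arrays with the low 5′ actin signal, and the groups overlapped. The difference of IFN-gamma from mock was -0.55 ± 0.42 (SE, n = 4 arrays per group, limma adjusted p = 1) and without IFN-gamma replicate 2 it was 0.0058. Bub1, a kinase of the spindle checkpoint, read 9.26, 9.42, 9.72 and 9.10 in mock cells, 9.23, 9.06, 9.32 and 9.06 with IFN-alpha and 8.97, 9.21, 9.43 and 9.12 with IFN-gamma. The groups overlapped here too (-0.20 ± 0.15 and -0.19 ± 0.15, limma adjusted p = 1 for both).

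Tyms, which makes thymidylate for DNA synthesis, had the smallest unadjusted p among members for IFN-gamma at 1 h. It read 5.33, 5.34, 5.03 and 4.98 in mock cells, 5.13, 5.23, 4.99 and 5.15 with IFN-alpha, and 5.74, 6.13, 5.47 and 4.91 with IFN-gamma. Replicates 1 to 3 with IFN-gamma lay above all mock arrays and replicate 4 below them. The difference from mock was 0.39 ± 0.20 (limma adjusted p = 1), and between the interferons -0.44 ± 0.20 for IFN-alpha against IFN-gamma (unadjusted p = 0.0453, adjusted p = 1).

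The same question at 3 h gave 0 of 39 members called with IFN-alpha and 0 of 39 with IFN-gamma in limma, beside 1.83% and 2.35% of all genes. At an unadjusted p under 0.05 there were 0 in both, beside 3.59% and 5.25% of genes. Most differences were slightly negative. So were those of most genes, of which 29.74% were above 0 with IFN-alpha and 34.99% with IFN-gamma. With IFN-alpha 7 of the 39 members were above 0 (17.95%; median -0.077, all genes -0.066), and with IFN-gamma 4 of the 39 (10.26%; median -0.123, all genes -0.053), with a median half-width of 0.46 for a member's interval. Groups did not overlap for 13 members with IFN-alpha and 15 with IFN-gamma, beside 22.7% and 24.8% of all genes. These comparisons share the mock arrays.

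**Figure D3:**
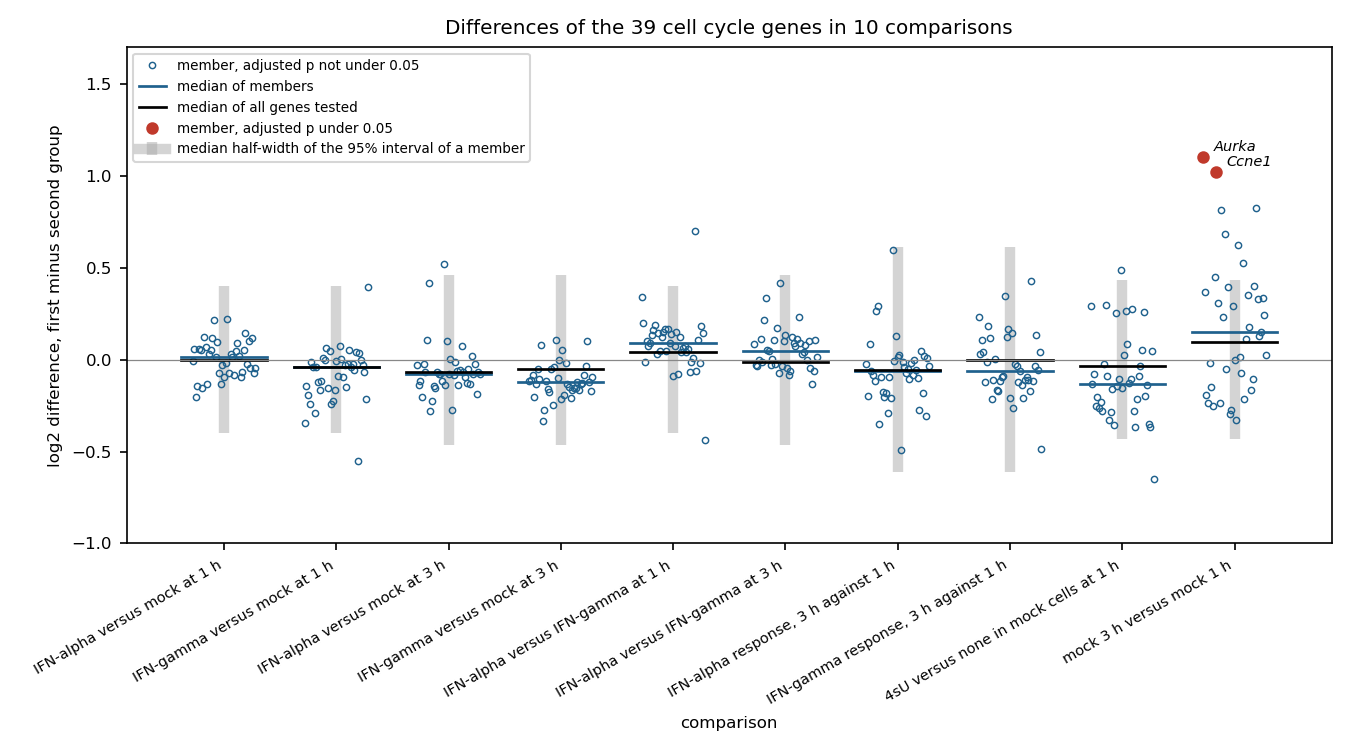
Log2 differences (first minus second group, vertical axis) of the 39 cell cycle genes in the 10 comparisons, with the medians of the members and of all genes tested as lines and the median half-width of a member's 95% interval as a grey bar. Filled points, Ccne1 and Aurka between the mock times, are the only members with an adjusted p under 0.05 in the limma fit without the replicate block. Nearly all members lie within the grey bar in the interferon comparisons.

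By role, the licensing genes were lower with IFN-gamma at 3 h in 9 of 9 cases (-0.25 to -0.13) and with IFN-alpha in 8 of 9 (-0.15 to 0.074), with 0 called either way. The G1 genes ran from -0.33 to 0.082 with IFN-gamma (1 of 6 above 0) and from -0.28 to 0.42 with IFN-alpha (3 of 6). The 5 genes of DNA synthesis lay between -0.13 and -0.033 with IFN-gamma and between -0.14 and 0.021 with IFN-alpha. Cdk1, Ccna2 and Ccnb2 lay between -0.18 and -0.050 with IFN-gamma and between -0.067 and -0.025 with IFN-alpha. The mitotic kinases lay between -0.16 and -0.11 and between -0.14 and -0.029, and the checkpoint and anaphase genes between -0.20 and -0.019 and between -0.21 and -0.066. Of the 5 motor and centromere genes 2 were above 0 with either interferon (-0.19 to 0.10 with IFN-gamma, -0.27 to 0.52 with IFN-alpha). Of Mki67 and Top2a, 1 was above 0 with IFN-gamma (Top2a) and 0 with IFN-alpha. None of these sets had a called member in limma or one at an unadjusted p under 0.05, and the intervals above are wider than the differences.

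With IFN-alpha at 3 h the members above 0 were Cenpe, Ccnd2, Ccnd1, E2f1, Mcm6, Rrm1 and Kif11. Of these Ccnd2 and Cenpe had the largest differences, and Ccnd1 (0.11) and E2f1 (0.10) came next. Ccnd2, a D-type cyclin that binds Cdk4 and Cdk6 in G1, read 10.10, 10.17 and 10.15 on the mock arrays, 10.54, 10.46 and 10.67 with IFN-alpha, and 10.19, 10.17 and 10.31 with IFN-gamma. Its IFN-alpha arrays lay above all arrays of both other groups. The difference from mock was 0.42 ± 0.21 (SE, n = 3 arrays per group, 1.33-fold, higher in 3 of 3 same-numbered pairs), with a limma adjusted p of 1. With the replicate number as a block within each time, the difference had an SE of 0.093 and an adjusted p of 0.0210, beside 3.68% of genes called in that fit. Pairing by number is less clear at 3 h than at 1 h.

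All 7 kept probe sets of Ccnd2 were higher with IFN-alpha than in mock cells at 3 h (0.23 to 0.44), and 3 of them passed with the block. The lowest of the 7 had means of 4.75, 4.97 and 5.44 over the 24 arrays, not far above log2 4. The 0.44 came from the one at 4.97, on which the groups overlapped (5.76, 5.64 and 4.91 against 4.94, 4.96 and 5.10 in mock). IFN-alpha replicate 3, on which Ccnd2 read 10.67, is the array with the highest 18S signal. Without it and replicate 3 of IFN-gamma the blocked difference was 0.36 with an adjusted p of 0.331.

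Cenpe, the kinesin that links kinetochores to microtubules, read 9.10, 8.99 and 8.89 on the mock arrays of 3 h, 9.65, 9.60 and 9.30 with IFN-alpha, and 9.20, 9.21 and 8.89 with IFN-gamma. The IFN-alpha arrays were again above both other groups. The difference from mock was 0.52 ± 0.31 (1.44-fold, 3 of 3 pairs, limma adjusted p = 1), and with the replicate block 0.52 ± 0.10 (adjusted p = 0.00607). Without the arrays of high 18S signal it was 0.58 (adjusted p = 0.0392 with the block). Its other kept probe set differed by 0.44 ± 0.42 and did not pass with the block either (adjusted p = 0.569).

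**Figure D4:**
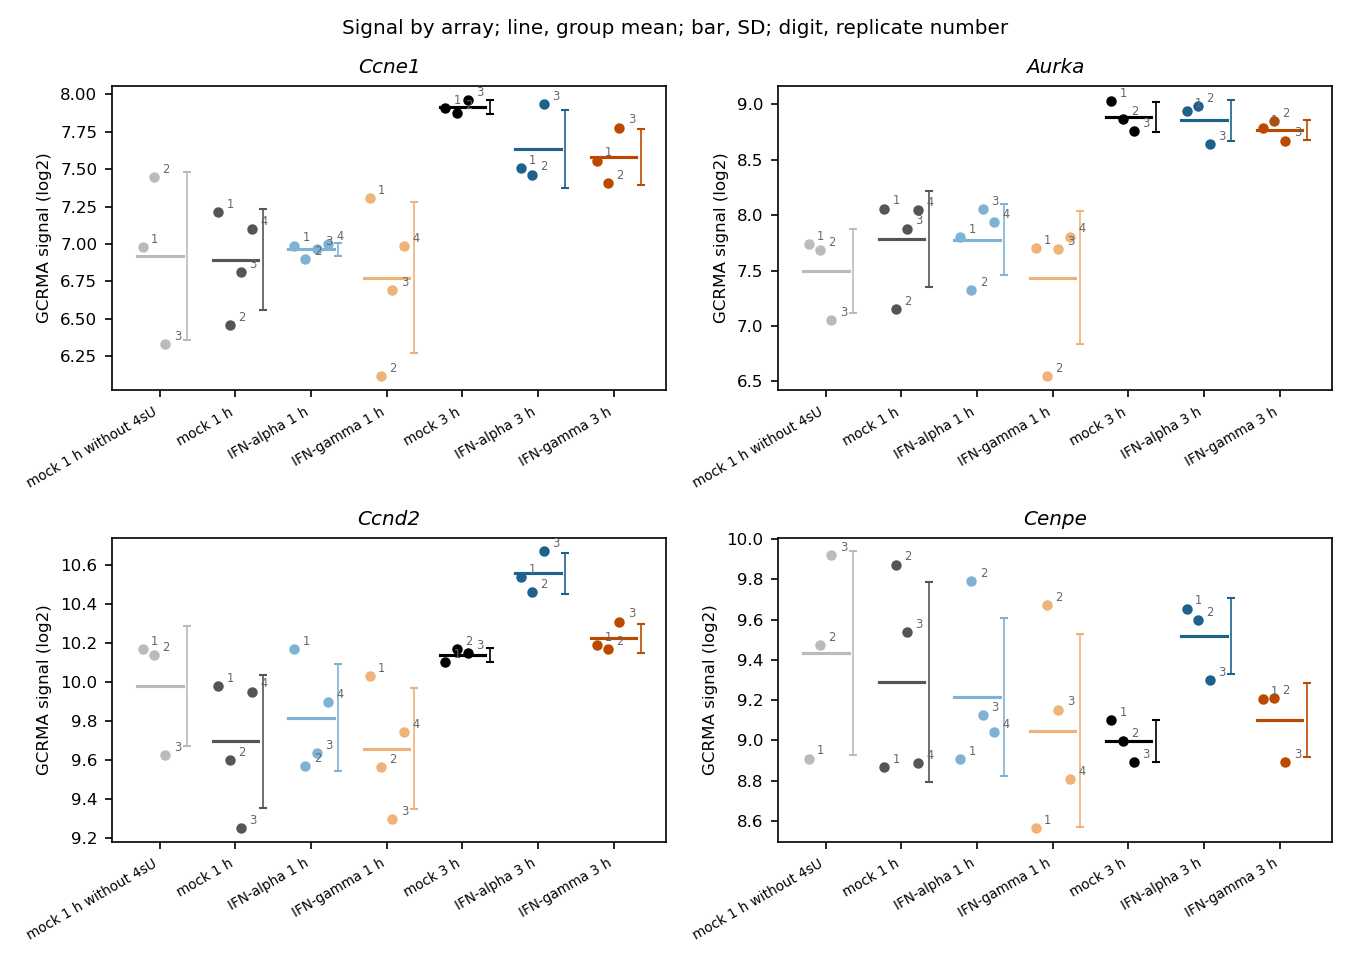
Log2 signal of Ccne1, Aurka, Ccnd2 and Cenpe on each array by group (horizontal line, mean; bar, SD; digit, replicate number). At 3 h the IFN-alpha arrays of Ccnd2 (10.46 to 10.67) and Cenpe (9.30 to 9.65) lie above those of mock and IFN-gamma, and Ccne1 and Aurka are higher in mock cells at 3 h than at 1 h on every array.

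Ccne1, the E-type cyclin that acts at entry into S phase, had the smallest p among members with IFN-gamma at 3 h. It read 7.91, 7.87 and 7.96 on the mock arrays, 7.51, 7.46 and 7.93 with IFN-alpha and 7.56, 7.41 and 7.78 with IFN-gamma. The IFN-gamma arrays were below all mock arrays, and of the IFN-alpha arrays replicate 3 lay among them. The differences were -0.33 ± 0.27 with IFN-gamma and -0.28 ± 0.27 with IFN-alpha (limma adjusted p = 1 for both).

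Cdk1 read 11.06, 11.05 and 11.02 in mock cells at 3 h, 10.93, 10.99 and 11.00 with IFN-alpha and 10.79, 10.86 and 10.94 with IFN-gamma. Both interferon groups lay below the mock arrays (-0.067 and -0.18 ± 0.14, limma adjusted p = 1). Mcm7 read 12.00, 11.93 and 11.83 in mock cells, 11.88, 11.86 and 11.82 with IFN-alpha and 11.72, 11.80 and 11.78 with IFN-gamma. Its IFN-gamma arrays lay below all mock arrays, while its IFN-alpha arrays overlapped with them, and the difference with IFN-gamma was -0.15 ± 0.14 (limma adjusted p = 1).

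Pcna read 13.09, 13.02 and 13.02 in mock cells at 3 h, 13.01, 12.99 and 12.97 with IFN-alpha and 12.90, 12.99 and 12.85 with IFN-gamma. Neither interferon group overlapped with mock, but the differences were -0.051 and -0.13 ± 0.18 (limma adjusted p = 1). Tpx2, which activates Aurka on the spindle, read 8.71, 8.77 and 8.85 in mock cells, 8.55, 8.57 and 8.64 with IFN-alpha and 8.68, 8.82 and 8.46 with IFN-gamma. The IFN-alpha arrays alone were below the mock arrays (-0.19 ± 0.15, limma adjusted p = 1).

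Compared directly, IFN-alpha and IFN-gamma gave 0 of 39 members called at 1 h and 0 of 39 at 3 h in limma, beside 0.403% and 1.87% of all genes. At an unadjusted p under 0.05 there was 1 at 1 h, Tyms, and 0 at 3 h, beside 2.56% and 4.72% of genes. At 1 h 0 members had groups that did not overlap, beside 1.19% of genes. At 3 h 7 members did not overlap (Mcm6, Mad2l1, Cdt1, Ccnd2, Cenpe, Mcm7 and Top2a), beside 21.5% of genes. Ccnd2 and Cenpe were 0.33 ± 0.21 and 0.42 ± 0.31 higher with IFN-alpha than with IFN-gamma (limma adjusted p = 1). With the replicate block Cenpe passed (adjusted p = 0.0241, 5.52% of genes called), while Ccnd2 did not (0.0604). Mcm6, a helicase subunit, read 11.30, 11.34 and 11.25 with IFN-alpha at 3 h, 11.17, 11.14 and 10.88 with IFN-gamma and 11.25, 11.21 and 11.21 in mock cells. Top2a went the other way (10.93, 10.96 and 10.88 against 11.01, 11.17 and 10.97; 10.97, 10.98 and 10.90 in mock cells). Neither passed (0.23 ± 0.18 and -0.13 ± 0.14, limma adjusted p = 1).

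Whether a response changed between the times was tested as an interaction. In limma 0 of 39 members were called for IFN-alpha and 0 for IFN-gamma, beside 1.14% and 0.977% of all genes, and 0 had an unadjusted p under 0.05 in either, beside 2.8% and 3.44%. The largest change of the response to IFN-alpha was that of Cenpe, from -0.07 at 1 h to 0.52 at 3 h (0.60 ± 0.41, limma adjusted p = 1). With the replicate block its adjusted p was 0.0282, beside 2.57% of genes called in that fit. For IFN-gamma it was Tyms, from 0.39 to -0.09 (-0.49 ± 0.31, limma adjusted p = 1).

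Labelling alone was compared in mock cells at 1 h with and without 4sU. In limma 0 of 39 members were called and 0.0% of all genes, while 5 members had an unadjusted p under 0.05, Tyms, Top2a, Tpx2, Mcm6 and Cdk1 (6.5% of all genes did so). All 5 were lower with 4sU. Tyms read 5.76, 6.12 and 5.59 without 4sU, above the 4.98 to 5.34 of the mock arrays with it (-0.65 ± 0.22, limma adjusted p = 0.5). Top2a read 10.91, 11.33 and 11.21 without and 10.75, 10.81, 10.74 and 10.90 with 4sU (-0.35 ± 0.13, limma adjusted p = 0.55). Tpx2 read 8.57, 9.12 and 8.74 without and 8.46, 8.5, 8.35 and 8.46 with it (-0.37 ± 0.14, limma adjusted p = 0.553). On the probe set that stands for each of these 3 genes the groups did not overlap, as for 3.76% of all genes. On the other kept probe set of Top2a, and on that of Tpx2, the groups with and without 4sU overlapped. Over the members the median difference was -0.135 (all genes -0.037). Replicates 2 and 3 of the group without 4sU and replicate 2 of the group with it had the low 5′ actin signal, and the part of that signal in these differences was not tested.

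The mock groups of 3 h and 1 h gave the only 2 calls among the members in limma, Ccne1 and Aurka, both higher at 3 h. Of all genes 9.66% were called and 5.45% were called higher at 3 h, so 2 of 39 is a share near the background. Effects of time, of 4sU dose and of its window cannot be told apart here. Ccne1 read 7.21, 6.46, 6.81 and 7.10 at 1 h and 7.91, 7.87 and 7.96 at 3 h, every 3 h array above every 1 h array. The difference was 1.02 ± 0.25 (2.03-fold, limma adjusted p = 0.0134), and its other probe set gave 0.38 ± 0.15 (adjusted p = 0.0927). Aurka, a kinase of centrosome maturation and spindle assembly, read 8.06, 7.15, 7.88 and 8.05 at 1 h and 9.03, 8.87 and 8.76 at 3 h. Its arrays did not overlap either (1.10 ± 0.28, 2.14-fold, limma adjusted p = 0.0139).

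The interferon arrays, not part of that comparison, stood apart by time in the same way on the probe set that stands for each gene. Aurka read 7.80, 7.32, 8.06 and 7.93 with IFN-alpha and 7.70, 6.54, 7.69 and 7.81 with IFN-gamma at 1 h, and 8.94, 8.99 and 8.64 and 8.79, 8.85 and 8.67 at 3 h. Ccne1 read 6.99, 6.90, 6.97 and 7.0 with IFN-alpha and 7.31, 6.12, 6.69 and 6.99 with IFN-gamma at 1 h, below the 7.41 to 7.93 of both at 3 h. On the other probe set of Ccne1 the times overlapped with either interferon. With IFN-alpha it read 6.74 to 7.21 at 1 h and 7.06 to 7.10 at 3 h. With IFN-gamma it read 6.96 to 7.275 at 1 h and 7.09 to 7.13 at 3 h. Without 4sU at 1 h, Aurka read 7.74, 7.69 and 7.05 and Ccne1 6.98, 7.45 and 6.33. On 1 h replicate 2 both genes were low in mock cells. Without the 5 arrays of low 5′ actin signal both stayed called, and 5 members in all passed (with Cdc6, Mcm3 and Tpx2) beside 16.8% of genes. Aurka lost its call without mock 1 h replicate 2 (adjusted p = 0.0520), mock 3 h replicate 1 (0.0705) or mock 3 h replicate 2 (0.0503), and Ccne1 without mock 3 h replicate 1 (0.0517).

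Of the other members, 6 had an unadjusted p under 0.05 between the mock times, all higher at 3 h, making 8 of 39 beside 25.3% of all genes. They were Mcm3 (0.52 ± 0.19, limma adjusted p = 0.0727), Cdc6 (0.81 ± 0.31), Pcna (0.40 ± 0.17), Tpx2 (0.33 ± 0.14), Ccnd2 (0.45 ± 0.20) and Rrm1 (0.33 ± 0.15), with limma adjusted p of 0.0911 to 0.15 for the last 5. Mcm3 read 9.57 to 10.30 on the 4 arrays of 1 h and 10.54, 10.47 and 10.49 at 3 h, with no overlap. The cyclin D kinase Cdk4 read 11.39, 9.49, 10.65 and 11.05 and then 11.39, 11.32 and 11.28 (0.69 ± 0.39, limma adjusted p = 0.252). Its groups overlapped, and its 1 h mean was lowered most by replicate 2. Members were not all higher, since 15 of 39 were lower at 3 h, with Kif11, the motor that pushes spindle poles apart, lowest (-0.33 ± 0.16, limma adjusted p = 0.180). The 39 had a median of 0.15 (all genes 0.096), and 12 did not overlap, beside 29.4% of genes.

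Probe sets of 1 gene differed in this comparison. Of the 81 kept member probe sets 6 were called, beside 11.3% of all probe sets, and 4 of those 6 were not the one that stands for its gene. For Top2a the probe set with the higher signal gave 0.15 ± 0.13 and the other, at 6.86, 7.08, 6.41 and 6.10 at 1 h and 7.80, 7.90 and 7.77 at 3 h, gave 1.21 ± 0.23 (limma adjusted p = 0.00193). For Mcm2 they gave -0.08 ± 0.20 and 0.71 ± 0.20 (limma adjusted p = 0.0243), opposite in sign. For Mcm5 and Mcm3 the other called probe sets gave 0.68 ± 0.21 and 0.83 ± 0.26 (limma adjusted p = 0.0371 and 0.0458). Of the 26 members with several kept probe sets, all probe sets had 1 sign in 13. Tpx2 and Ccnd2, listed above as higher at 3 h, were not among them. The other kept probe set of Tpx2 read 6.95, 6.41, 6.17 and 6.63 at 1 h and 6.29, 6.33 and 6.75 at 3 h, with a lower mean at 3 h. Some of the other probe sets of Ccnd2 had a lower mean at 3 h and some a higher one.

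The mitotic genes did not share a direction between the mock times. Aurkb, a kinase of chromosome alignment and cytokinesis, read 9.25, 8.46, 8.93 and 9.02 at 1 h and 9.41, 9.30 and 9.13 at 3 h, and Cenpa, the centromeric histone, 10.41, 9.29, 10.19 and 10.18 and then 10.36, 10.32 and 10.57. In both the lowest array is replicate 2 of 1 h. Cdc20 read 11.57, 12.31, 12.12 and 11.41 and then 11.62, 11.64 and 11.60, and Cenpe 8.87, 9.87, 9.54 and 8.89 and then 9.10, 8.99 and 8.89. In these genes replicate 2 of 1 h is the highest array, and the 3 h arrays lie inside the 1 h range.

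Replicate 2 at 1 h moved many genes at once, members and others, in the same direction in all 3 treatments with 4sU. Against the mean of replicates 1, 3 and 4 of its own group, it was higher in all 3 groups for 21 members and lower in all 3 for 15 of 39, beside 39.07% and 40.82% of all genes. Averaged over the groups, Chek1 was 1.7 higher, Ccnd1 1.24 and Cdt1 1.07, while Plk1 fell by 1.47, Cdk4 by 1.2 and Kif20a by 1.16. Both S phase and mitotic genes were found on each side. For Ccnd1 the probe sets disagreed. In mock cells at 1 h the probe set that stands for the gene read 9.58, 10.79, 9.86 and 8.76, highest on replicate 2, and another read 9.96, 9.07, 9.27 and 9.52, lowest on it. These arrays are those with the low 5′ actin signal, and the part of that signal in the pattern was not tested.

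**Figure D5:**
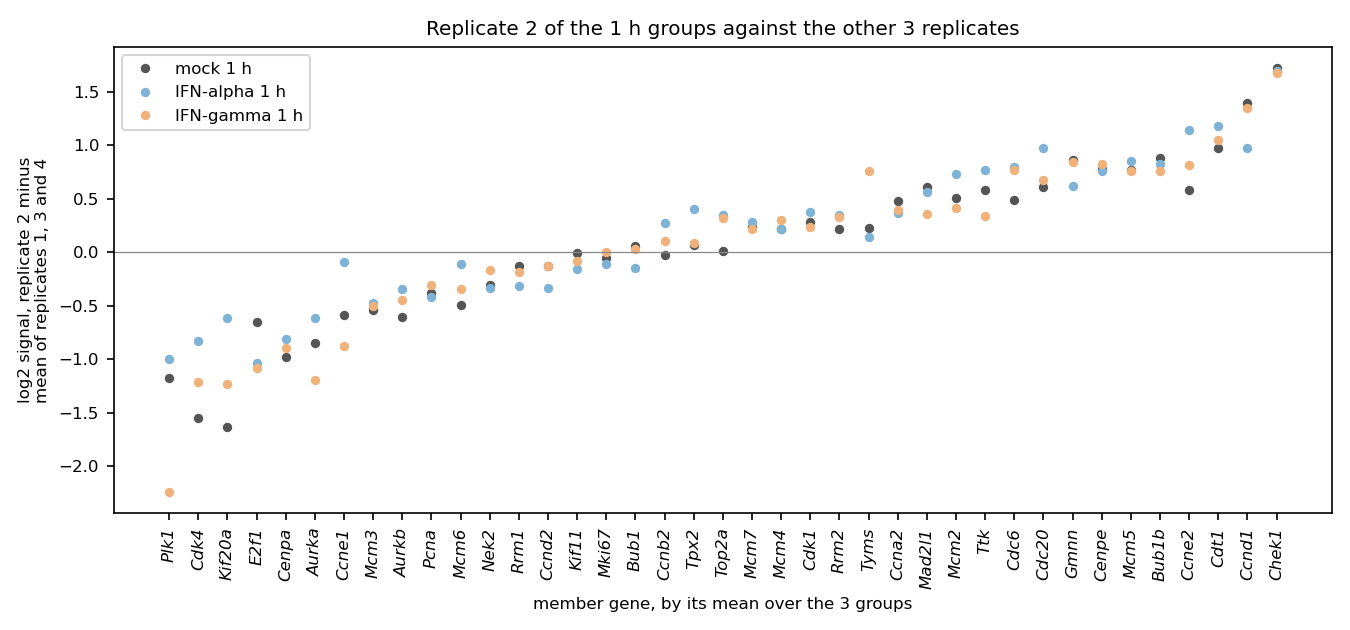
Log2 signal of replicate 2 minus the mean of replicates 1, 3 and 4 (vertical axis) for each cell cycle gene in the 3 groups of 1 h with 4sU, ordered by the mean of the 3 values. The 3 groups go the same way for 36 of the 39 genes, from Plk1 at the low end (mean -1.47) to Chek1 at the high end (mean 1.7). Of all genes, 39.07% were higher and 40.82% lower in all 3 groups.

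Regulators of the cycle outside the members gave few calls with interferon. Of 12 measured CDK inhibitors and anti-proliferative genes 1 rose with IFN-gamma at 3 h and 0 fell in limma (2.21% of all genes rose), and of 20 regulators of the RB, E2F and MYC families likewise 1 and 0. With IFN-alpha at 3 h and with either interferon at 1 h limma called 0 in both lists (1, Btg1 with IFN-gamma at 1 h, had an unadjusted p under 0.05). Of 28 other replication genes and 47 other mitotic genes 0 were called in the 8 interferon comparisons (1 replication gene at an unadjusted p under 0.05, for IFN-alpha against IFN-gamma at 1 h).

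With the replicate block more genes of these lists passed. Gadd45g, a stress-induced growth inhibitor, was higher with both interferons at 3 h (0.57 ± 0.12 and 0.53 ± 0.12, adjusted p = 0.0163 and 0.0179 with the block). Lin54, a subunit of the complex that binds CHR, was higher with IFN-alpha (0.68 ± 0.14, adjusted p = 0.00949 with the block). E2f5, a repressor E2F, and Orc2, of the origin recognition complex, were lower with IFN-gamma (-0.46 ± 0.096 and -0.38 ± 0.090, adjusted p = 0.00808 and 0.0191 with the block). None of the 47 mitotic genes passed with the block against mock at either time. In that fit 6.19% of all genes were called with IFN-gamma at 3 h and 3.68% with IFN-alpha, and these 4 genes were named after their values were seen.

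The 2 that rose without the block were Cdk6 and Btg1. Cdk6, the other kinase of the D-type cyclins, read 8.87, 8.96 and 8.98 in mock cells at 3 h, 8.78, 8.96 and 9.04 with IFN-alpha, and 9.86, 9.90 and 9.94 with IFN-gamma. The IFN-gamma arrays lay above both other groups (0.96 ± 0.21 against mock, 1.95-fold, limma adjusted p = 0.0129; -0.97 ± 0.21 for IFN-alpha against IFN-gamma, adjusted p = 0.0141). The change of its IFN-gamma response from 1 h to 3 h passed in the fit with the block (0.93 ± 0.11, adjusted p = 0.000141, 3.26% of genes called) and not without it (limma adjusted p = 0.259). Btg1, an anti-proliferative factor, read 10.96, 11.27 and 11.24 in mock cells, 11.30, 11.28 and 11.15 with IFN-alpha, and 12.00, 11.90 and 11.87 with IFN-gamma. It rose by 0.77 ± 0.15 with IFN-gamma (1.7-fold, limma adjusted p = 0.00367) and differed between the interferons (-0.69 ± 0.15 for IFN-alpha against IFN-gamma, limma adjusted p = 0.0134). At 1 h Btg1 read 11.26, 11.32, 11.28 and 11.69 in mock cells and 11.81, 11.89, 11.89 and 12.19 with IFN-gamma, without overlap and higher in 4 of 4 pairs (0.56 ± 0.13, limma adjusted p = 0.0615). With the replicate block that difference passed too (adjusted p = 0.000872, 2.1% of genes called), as did IFN-alpha against IFN-gamma at 1 h (-0.33 ± 0.078, adjusted p = 0.0452), and its change from 1 h to 3 h did not (0.21 ± 0.20, limma adjusted p = 1; 0.638 with the block).

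The best known inhibitors were not called. Cdkn1a (p21) read 8.19, 8.27 and 7.72 in mock cells at 3 h, 8.37, 8.19 and 7.85 with IFN-alpha and 8.16, 8.18 and 8.01 with IFN-gamma (0.08 and 0.06 ± 0.22, limma adjusted p = 1). Cdkn1b (p27) read 7.97, 8.33 and 8.14, then 8.17, 8.27 and 8.15, and 8.36, 8.35 and 8.36 (0.05 and 0.21 ± 0.26). Myc, a driver of growth and of cyclin and Cdk4 expression, read 8.69, 8.62 and 9.17 in mock cells at 3 h, 8.86, 8.91 and 9.37 with IFN-alpha and 8.46, 8.35 and 8.75 with IFN-gamma (0.22 and -0.30 ± 0.57). Groups overlapped with mock, apart from Cdkn1b with IFN-gamma, whose arrays lay above the mock arrays. By same-numbered pairs Myc was lower with IFN-gamma than in mock cells in 3 of 3 pairs at 3 h and in 4 of 4 at 1 h. At 1 h it read 9.0, 7.90, 9.03 and 10.40 in mock cells, 8.80, 8.14, 9.88 and 10.22 with IFN-alpha and 8.36, 7.37, 8.60 and 9.73 with IFN-gamma. With the block it passed at 1 h for IFN-gamma against mock (-0.57 ± 0.13, adjusted p = 0.0420, against 1 without the block) and for IFN-alpha against IFN-gamma (0.75 ± 0.13, adjusted p = 0.00810, 1.96% of genes called). At 3 h it did not (adjusted p = 0.444 and 0.0838). Foxm1, the factor of the mitotic genes, read 7.31, 7.50 and 7.36 in mock cells, 7.59, 7.38 and 7.46 with IFN-alpha and 7.52, 7.34 and 6.91 with IFN-gamma (0.08 and -0.14 ± 0.54). Ccng2, an atypical cyclin of arrested cells, read 7.40, 7.25 and 7.38, then 7.22, 7.44 and 7.19, and 7.76, 7.71 and 7.62 (-0.06 and 0.35 ± 0.32), the IFN-gamma arrays lying above the mock arrays. Without 4sU at 1 h Cdkn1a read 9.02, 9.17 and 8.63, above the 7.82 to 8.59 of mock cells with 4sU (-0.82 ± 0.20 with 4sU, limma adjusted p = 0.276).

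Between the mock times limma called 0 of the 12 inhibitors, 1 of the 20 regulators, 2 of the 28 replication genes and 3 of the 47 mitotic genes, beside 9.66% of all genes. Ccnf, an F-box protein of G2, read 7.29, 5.79, 6.53 and 7.37 at 1 h and 8.25, 8.21 and 8.13 at 3 h (1.45 ± 0.40, adjusted p = 0.0238). Fbxo5, an inhibitor of the anaphase ligase, read 8.48, 8.54, 8.27 and 8.88 and then 9.39, 9.22 and 9.52 (0.83 ± 0.18, adjusted p = 0.00501). The phosphatase Cdc25b (0.66 ± 0.20), the helicase cofactor Cdc45 (0.65 ± 0.19) and the replication protein Rpa2 (0.74 ± 0.23) were also higher at 3 h (limma adjusted p = 0.0346 to 0.0455). Rb1, which holds E2F in check, was lower, at 6.46, 7.69, 6.93 and 7.09 and then 5.77, 6.15 and 6.13 (-1.03 ± 0.28, limma adjusted p = 0.0239). Replicate 2, which has the low 5′ actin signal, was the lowest of these 1 h arrays for Ccnf, Cdc25b and Cdc45 and the highest for Rb1. Its part in these differences was not tested.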

How the data were processed

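The authors deposited log2 GCRMA signals of 24 one-colour Affymetrix arrays (GCRMA corrects background from the probes' sequence, normalizes across arrays and gives 1 value per probe set). The method is named per the submitters' processing notes, its version is not given in the sources used here, and the array number limits the precision. The 64 control probe sets were left out, probe sets above log2 4 on at least 3 arrays were kept (19305), and a gene was read from its kept probe set with the highest mean. Genes were named from GEO's platform annotation (34945 probe sets with 1 symbol, 932 with several, 9160 with none). The 7 groups were fitted together with limma 3.58.1 (R 4.3.3, 17 residual degrees of freedom, two-sided, Benjamini-Hochberg), and the fit was also run on simulated data. The simulated arrays were independent and had 1 spread per probe set in all groups. The run therefore does not test the fit under the unequal spread and shared deviations of the real arrays. The members and gene lists were chosen with earlier results of these data known. Named genes were, per role, the member with the highest mean, every called member, the 3 members of smallest p per comparison, called genes of the other lists and 5 regulators.

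Same-numbered arrays of mock, IFN-alpha and IFN-gamma deviated together at 1 h (correlations 0.465 to 0.914, against -0.74 to 0.42 for differently numbered arrays). At 3 h the correlations were 0.128 to 0.647 for same-numbered and -0.56 to 0.38 for differently numbered arrays. There the ranges overlapped for IFN-gamma with mock and with IFN-alpha, and hardly parted for mock with IFN-alpha (lowest 0.370 against highest 0.359). The number was also fitted as a block within each time, and pairing at 3 h, on which calls with the block rest, is less clear. Mock with and without 4sU (lowest 0.081) and the mock times (-0.23 to 0.13) were not paired by number. Alternatives were the block, fewer arrays, no filter, a floor, renormalization, array weights, mean probe sets and left-out arrays. Promoter windows were RefSeq's.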

Additional observations from a re-analysis of the deposited data

Results flagged for a closer look

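Among 54 groups of 4 arrays tested (18 members in 3 groups), 2 held an array set far from the others, both of them replicate 2 at 1 h. Chance sets such an array apart in about 1 in 20 groups. Aurka read 6.54 on replicate 2 of IFN-gamma at 1 h, against 7.69 to 7.81 on the other 3 arrays. Tpx2 read 8.86 on replicate 2 of IFN-alpha at 1 h, against 8.41 to 8.49 on the other 3. Both arrays have the low 5′ actin signal (3′ minus 5′ difference 3.43 and 3.09), and its part in these values was not tested.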

How the results depend on the processing

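Of 560 alternatives for the named members, 534 left the direction and the side of the threshold as they were, 20 brought a call, 5 ended one and 1 reversed a sign, that of Plk1 for IFN-gamma at 1 h (0.0058 without IFN-gamma replicate 2, against -0.55; -0.89 to 0.0058 with 1 array left out in turn). Of 176 alternatives for the counts of called members 158 agreed within 1.5 times with the count given. With the replicate block the counts were 2 for IFN-alpha at 3 h, 1 for IFN-alpha against IFN-gamma at 3 h, 1 for the change of the IFN-alpha response and 7 for the mock times, in place of 0, 0, 0 and 2 (3.68%, 5.52%, 2.57% and 27% of all genes), and the pairing changed no other call among the members. Numbers do not pair the arrays of the mock times, so the 7 rest on a shared number only. With only arrays of the same time in the fit, 1 member (Ccnd2) passed for IFN-alpha at 3 h and 1 (Ccnd2) for IFN-alpha against IFN-gamma (3.76% and 5.92% of genes). With array quality weights the counts were 3 for IFN-alpha at 3 h, 2 for IFN-gamma at 3 h, 2 for IFN-alpha against IFN-gamma at 3 h, 12 for 4sU and 4 for the mock times, beside 9.39%, 11.7%, 11.1%, 20.3% and 19.3% of all genes. With the block and without the arrays of high 18S signal, an alternative chosen after seeing the data, 1 member (Cenpe) passed for IFN-alpha at 3 h (2.56% of genes). Between the mock times the count was 1 with only these groups in the fit (Aurka at an adjusted p of 0.0542; 3.31% of genes), 5 with the mean of a gene's probe sets (11.8%), 5 without the arrays of low 5′ actin signal (16.8%), and 0 to 3 with 1 array left out in turn. In the other comparisons it was 0 throughout with 1 array left out. The causes were not tested. All 39 members lay above log2 4 on every array. Tyms was the lowest (mean 5.30, lowest array 4.81), and its other kept probe set exceeded log2 4 on 6 arrays. The part of background in its values was not tested. Ccnb1 and Cdk2 give no difference here.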
